A study of Mus musculus with 6 samples.

Results

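Macroautophagy encloses cytoplasm in a double membrane, the autophagosome, and delivers it to the lysosome for breakdown. The ULK kinase complex starts the process, a class III PI3-kinase complex marks the site, ATG9 vesicles and ATG2 proteins supply lipid, and a pair of ubiquitin-like conjugation systems attaches ATG8 proteins to the growing membrane, where cargo receptors bind them. The transcription factors TFEB and TFE3 switch on many genes of autophagy and the lysosome when nutrients or mTORC1 activity fall. In T cells the pathway is known for removing damaged mitochondria and endoplasmic reticulum and for survival after activation. The genes described here are 37 mouse genes of this machinery, taken by symbol: the core complexes, the receptors *Sqstm1*, *Nbr1* and *Optn*, and *Tfeb* and *Tfe3*. All 37 were found among the 35602 genes of the count table and among the 34714 genes of the separate tables of replicate 1, and all 37 were among the 16269 genes tested.

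RNA-seq compared mouse splenic CD4+ T cells, activated with antibodies to CD3 and CD28 for 72 h, with and without MAPK13-IN-1, an inhibitor of the p38-family kinase MAPK13. The vehicle DMSO served as the control, and each group held 3 libraries. In each group the library whose title carries no number is called replicate 1 here. Replicates 2 and 3 of both groups were counted in the same table, with totals of 26874805 and 28487403 counts for DMSO and 33854760 and 32617702 counts for the inhibitor. Replicate 1 of each group came from another library protocol and is given as 1 column of length-scaled values per library, read here as FPKM because no header names the unit and because the values tracked counts per exon length (r = 0.844 over 9137 genes) more closely than counts (r = 0.762, both across genes of 1 pair of libraries, which are not independent replicates).

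For replicates 2 and 3 the labels give the genotype WT, CD3/CD28 costimulation in both groups, and the addition of 17.1 µM inhibitor or of DMSO after culture until day 1, whereas the series design has the inhibitor present during the 72 h. For replicate 1 the labels give spleen, the cell type and the agent, with no genotype, dose or day of addition. The study names C57BL/6J and BALB/c among its mice, but no source used here ties a strain or an age to these libraries. The cells were purified with a kit for mouse CD4 T cells, and no source states that the libraries came from separate animals or cultures, so p-values measure only the spread between these samples, which may be technical.

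The T-cell label held in part when set against marker genes. Of 6 CD4 T-cell markers in the count table, *Cd4* stood at 275 and 276 CPM with DMSO and 267 and 283 CPM with the inhibitor (CPM, the count scaled to library size with TMM factors), while the other 5 were lower with the inhibitor. The summed level of the 6 genes was 1317 and 1332 CPM with DMSO and 755 and 864 CPM with the inhibitor (most abundant *Cd5* with DMSO and *Cd4* with the inhibitor). B-cell markers were also present in these 4 libraries, which goes against the label: 8 genes summed to 1099 and 1077 CPM with DMSO and 1282 and 1302 CPM with the inhibitor (most abundant with the inhibitor *Pax5*), with 6 of 8 called higher and 1 lower. Among all tested genes 31.5% were called higher and 32.3% lower (edgeR adjusted p under 0.05). None of these 8 B-cell markers was at 0. In replicate 1 the same 8 genes summed to 46.7 FPKM in the DMSO library and 34.6 FPKM in the inhibitor library, beside 842 and 794 FPKM for the 6 CD4 T-cell genes. Macrophage markers (8 genes, led by *Cd68*) went from 12.6 and 11.4 to 40.4 and 33.4 CPM in sum, with 5 of 7 tested genes called higher, and *C1qa* was at 0 in all but inhibitor replicate 2. Erythroid markers (8 genes) went from 7.83 and 7.54 to 90.0 and 64.6 CPM (most abundant *Hbb-bs*, except *Klf1* in DMSO replicate 3), with 6 of 7 tested genes called higher. CD8 T-cell markers (2 genes, led by *Cd8b1*) summed to 11.7 and 10.9 CPM with DMSO and 5.49 and 7.85 CPM with the inhibitor, and both were called lower. NK-cell markers (4 genes, led by *Eomes*) summed to between 1.43 and 2.28 CPM. Neutrophil markers (6 genes) summed to 0.233 and 0.221 CPM with DMSO and 0.564 and 0.767 CPM with the inhibitor. The most abundant was *Mpo* with the inhibitor, *Ly6g* in DMSO replicate 2 and *S100a8* in DMSO replicate 3, and *S100a9* was at 0 in all 4 libraries. *Mpo*, the only neutrophil marker tested, was called higher (log2 fold change 2.59, edgeR adjusted p = 0.00457). In replicate 1 the inhibitor library had the higher sum of macrophage markers (3.01 and 9.92 FPKM for DMSO and inhibitor) and erythroid markers (0.931 and 1.94 FPKM, with *Alas2* and *Klf1* lower), as in the count table. It also had the higher sum of CD8 T-cell markers (3.49 and 8.39 FPKM), opposite to the count table, and of NK-cell markers (0.644 and 4.40 FPKM, mostly *Eomes*), which overlapped between the groups there. The sum of neutrophil markers was lower in the inhibitor library (0.533 and 0.351 FPKM), also opposite to the count table. That lower sum came from *S100a8* alone, while the 3 other detected genes were higher. The part of these marker changes in the results on autophagy genes was not tested, and in such bulk samples fewer cells of a type and less RNA per cell cannot be told apart.

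More autophagy genes were lower than higher with the inhibitor in replicates 2 and 3, and the opposite was seen in replicate 1. In the count data 20 of 37 genes (54.1%) were called lower, where 32.3% of all tested genes were called lower, and 7 of 37 (18.9%) were called higher, where 31.5% of all tested genes were. A gene was called at an adjusted p under 0.05 in the quasi-likelihood test of edgeR, adjusted by Benjamini-Hochberg over all 16269 genes. The median log2 fold change (inhibitor over DMSO) was -0.26 over the 37 genes and 0.01 over all tested genes. With a log2 fold change of at least 1 as well, 4 genes were lower (*Atg13*, *Map1lc3a*, *Atg4d*, *Tfeb*), which is 10.8% of the 37 and near the 10.4% of all tested genes, and 1 was higher (*Atg4c*), 2.70% beside 13.0% of all tested genes. The values of the 2 groups did not overlap for 33 of the 37 genes (89.2%), near the 83.0% of all tested genes, the exceptions being *Becn1*, *Atg2b*, *Atg10* and *Gabarap*.

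In the replicate 1 pair 27 of the 37 genes had a higher value with the inhibitor (73.0%) and 10 a lower value. A higher value was also the more common case among all genes, at 54.3% of the 10448 genes with 1 FPKM or more in each library of the pair and 60.2% of the 15825 tested genes listed there. The median log2 ratio, on the log2(FPKM + 1) scale, was 0.36, against 0.05 over those 10448 genes. A ratio of 0.3 or more was reached by 19 of the 37 genes (51.4%) and by 28.1% of the 10448 genes. Of the 20 genes called lower in the count table, 15 had a higher value in replicate 1 and 5 a lower value, and of the 7 called higher, 4 were higher and 3 lower. Among all genes with 1 FPKM or more in each library, 59.3% of the 4344 called lower were lower in replicate 1 as well, and 72.4% of the 2890 called higher were higher. The autophagy genes were not limited to that level: *Wipi1* (called lower) and *Atg4c* (called higher) were under 1 FPKM in each library of the pair. With 1 library per group the replicate 1 differences have no replicate check, and whether they differ from those of replicates 2 and 3 was not tested. Library protocol, file, any difference in inhibitor timing and the difference in B-cell markers described above cannot be told apart between the 2 sets.

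**Figure D1:**
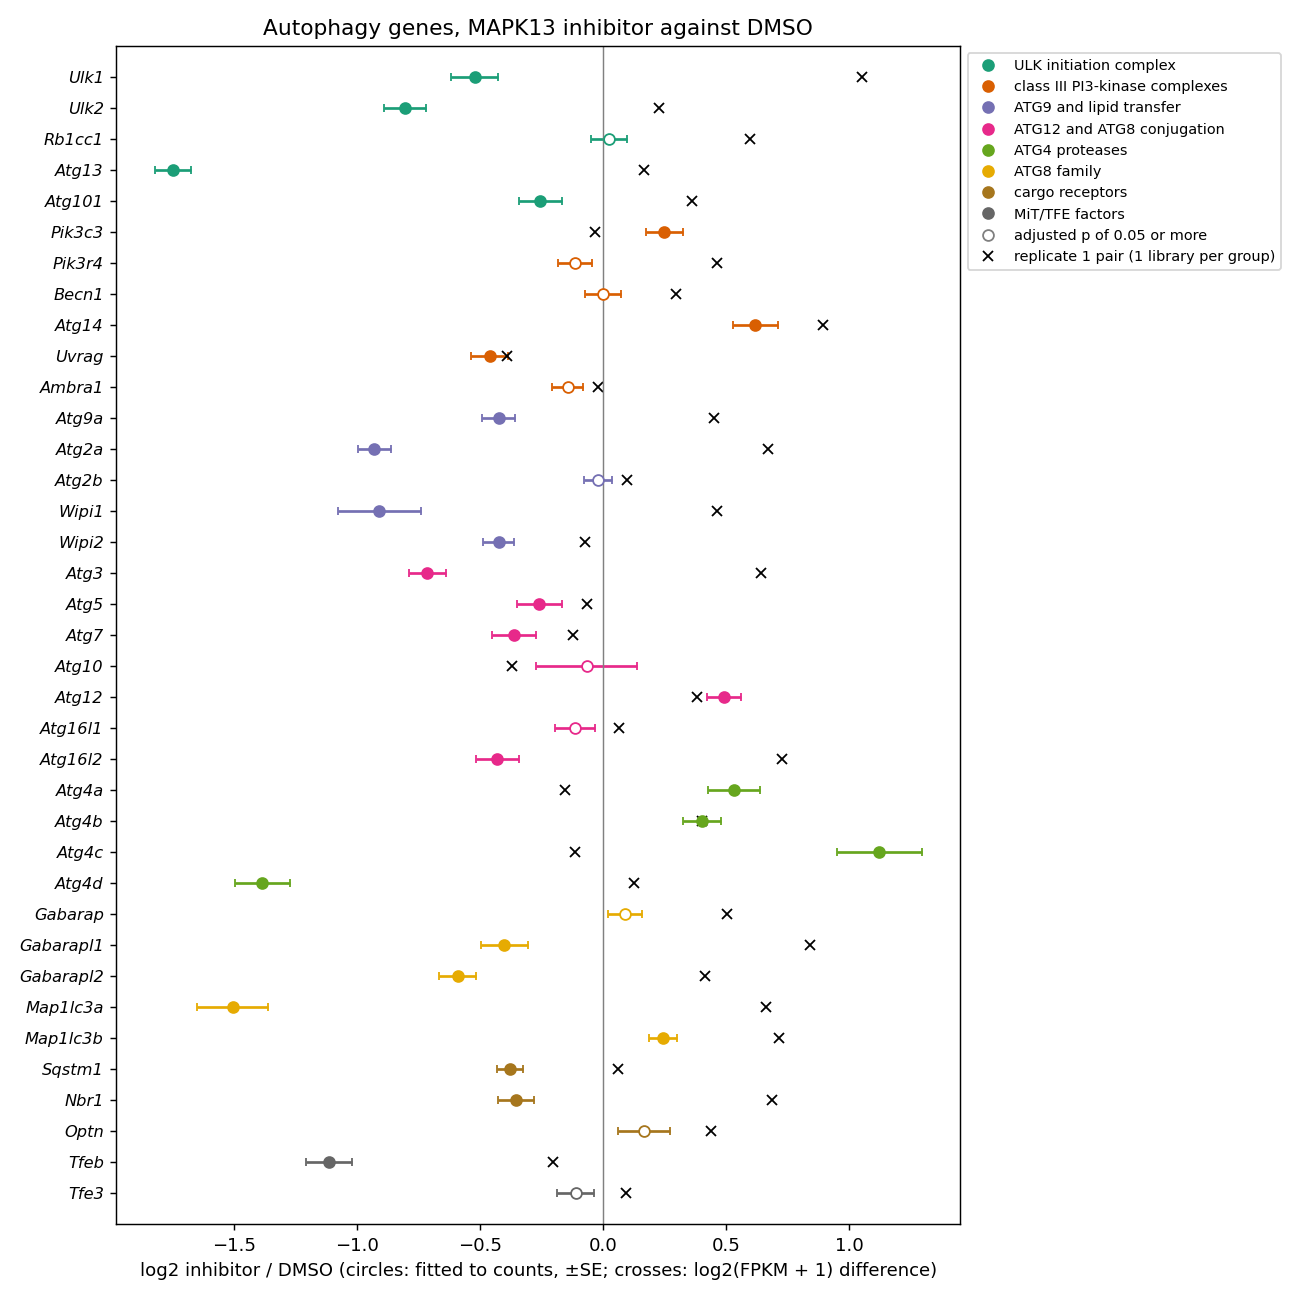
Log2 ratio of inhibitor to DMSO for the 37 autophagy genes, grouped by role. Circles are fitted log2 fold changes from the counts of replicates 2 and 3 with standard errors (filled where the adjusted p was under 0.05) and crosses are log2(FPKM + 1) differences of the replicate 1 pair; most circles lie left of 0 (20 genes called lower) and most crosses right of it (27 genes).

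The order of abundance can be read per length. In replicate 1 with DMSO the highest FPKM among the 37 genes was that of *Sqstm1* (176.5), followed by *Gabarap* (122), *Becn1* (56.6), *Gabarapl2* (44.6), *Gabarapl1* (24.1) and *Map1lc3b* (23.5). The same 6 genes held the same ranks with the inhibitor, at 184, 174, 69.7, 59.7, 43.9 and 39.3 FPKM. The lowest were *Atg4c* (0.296 and 0.197 FPKM) and *Wipi1* (0.440 and 0.983 FPKM). This order is that of replicate 1. In DMSO replicates 2 and 3 *Becn1* was at 17.4 and 17.6 CPM per kilobase of exon. That was below *Gabarapl1* (29.5 and 31.3) and *Gabarapl2* (22.4 and 22.8) in the same libraries. Over all 37 genes the sum was 737 FPKM in the DMSO library and 934 FPKM in the inhibitor library in replicate 1, whereas in the count table it was 2900 and 2930 CPM with DMSO and 2474 and 2402 CPM with the inhibitor. The summed signal was thus higher with the inhibitor in replicate 1 and lower in replicates 2 and 3. The sums weigh genes differently, since FPKM is scaled by length and CPM is not. *Sqstm1*, the most abundant member in the CPM sum, went from 814 and 840 CPM with DMSO to 663 and 610 CPM with the inhibitor.

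The ULK complex consists of the kinases ULK1 and ULK2, the scaffold FIP200 (encoded by *Rb1cc1*), ATG13, which joins kinase and scaffold, and ATG101, which stabilises ATG13. In the count data 4 of its 5 genes were called lower and none higher, beside 32.3% and 31.5% of all tested genes. *Atg13* (chr2:91674618-91710576, minus strand) stood at 78.7 and 78.8 CPM with DMSO and at 22.9 and 24.0 CPM with the inhibitor. The DMSO libraries lay far above both inhibitor libraries and the replicates of each group lay close together. The log2 fold change was -1.75 ± 0.0741 (SE, n = 2 libraries per group, edgeR adjusted p = 4.76e-08), a level 3.35-fold lower and the most negative of the 37. *Ulk2* stood at 39.1 and 42.7 CPM with DMSO and at 23.5 and 23.3 CPM with the inhibitor (log2 fold change -0.80 ± 0.0866, edgeR adjusted p = 1.91e-05). *Ulk1* stood at 77.5 and 83.4 CPM with DMSO and at 50.2 and 62.0 CPM with the inhibitor (-0.52 ± 0.0959, edgeR adjusted p = 0.000780). Both kinase genes were lower in each inhibitor library than in either DMSO library, with a wider gap between the inhibitor replicates for *Ulk1*. *Atg101* was called lower by a small amount (-0.25, edgeR adjusted p = 0.0247), and this call was lost in 6 of 11 alternative settings, among them without DMSO replicate 2 (-0.30, adjusted p = 0.0703) or DMSO replicate 3 (-0.22, adjusted p = 0.201). *Rb1cc1* had a log2 fold change of 0.03 (adjusted p = 0.774).

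None of these 4 decreases was seen in replicate 1. *Ulk1* was at 9.19 FPKM in the DMSO library and 20.1 FPKM in the inhibitor library, a difference of 1.05 on the log2(FPKM + 1) scale and 2.19-fold as a plain ratio. *Atg13* was at 18.2 and 20.5 FPKM, and *Ulk2* at 6.66 and 7.97 FPKM. All 5 genes of the complex had the higher value in the inhibitor library, by 0.16 to 1.05 on the log2(FPKM + 1) scale. Per length, *Ulk1* made up 64.6% and 64.3% of the summed *Ulk1* and *Ulk2* signal in DMSO replicates 2 and 3 and 66.3% and 71.0% in inhibitor replicates 2 and 3, and 58.0% and 71.6% in replicate 1. *Ulk1* was the more abundant of the kinase genes in all 6 libraries.

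The class III PI3-kinase complexes contain the lipid kinase VPS34 (*Pik3c3*), its regulatory subunit VPS15 (*Pik3r4*) and beclin 1 (*Becn1*). ATG14 directs a complex of these to the site of autophagosome formation, UVRAG defines a separate complex of the endosomal pathway, and AMBRA1 binds beclin 1 and regulates the complex. In the count data 2 of 6 genes (33.3%) were called higher, near the 31.5% of all tested genes. Only 1 (16.7%) was called lower, beside 32.3% of all tested genes. *Atg14* stood at 19.8 and 19.7 CPM with DMSO and at 31.4 and 29.3 CPM with the inhibitor (log2 fold change 0.62 ± 0.0918, 1.54-fold higher, edgeR adjusted p = 0.000181). In replicate 1 it was at 3.47 and 7.30 FPKM. *Atg14* was thus higher with the inhibitor in both sets, without overlap in replicates 2 and 3. *Uvrag* was lower in both sets, with a log2 fold change of -0.46 ± 0.0737 (edgeR adjusted p = 0.000306) and FPKM of 15.1 and 11.3 in replicate 1. *Pik3c3* was called higher (0.25 ± 0.0745, edgeR adjusted p = 0.0133), a call lost without DMSO replicate 3 (0.19, adjusted p = 0.184), and had nearly equal values in replicate 1 (12.5 and 12.2 FPKM). *Becn1*, the most abundant gene of the group per length, stood at 123 and 124 CPM with DMSO and at 132 and 115 CPM with the inhibitor. Its inhibitor libraries lay on either side of the DMSO libraries and its log2 fold change was 0.00 ± 0.0737 (adjusted p = 0.996). *Pik3r4* (-0.11, adjusted p = 0.173) and *Ambra1* (-0.14, adjusted p = 0.0705) did not pass the test, although *Ambra1* did without inhibitor replicate 2 (adjusted p = 0.0348) or inhibitor replicate 3 (adjusted p = 0.0150). Exons of other genes on the opposite strand cover 43.9% of the exon bases of *Becn1*, 17.6% of those of *Uvrag* and 5.53% of those of *Atg14*.

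ATG9A is the transmembrane scramblase of the vesicles that seed the membrane, ATG2A and ATG2B carry lipid to it, and WIPI1 and WIPI2 bind the phosphoinositide made by VPS34. In the count data 4 of these 5 genes were called lower and none higher, beside 32.3% and 31.5% of all tested genes. *Atg2a* stood at 93.2 and 96.1 CPM with DMSO and at 48.3 and 51.3 CPM with the inhibitor (log2 fold change -0.93 ± 0.0677, 1.90-fold lower, edgeR adjusted p = 1.29e-06). Its paralogue *Atg2b* gave a log2 fold change of -0.02 ± 0.0579 (adjusted p = 0.767) with overlapping groups. The share of *Atg2a* in the summed per-length signal of the pair was 50.5% and 52.5% in DMSO replicates 2 and 3 and 35.8% and 36.6% in inhibitor replicates 2 and 3. *Atg2a* therefore went from about equal with *Atg2b* to the less abundant of the pair in the count table. In replicate 1 the values of *Atg2a* were 10.7 FPKM in the DMSO library and 17.7 FPKM in the inhibitor library, and its share was 59.6% and 69.3%, a difference in the other direction.

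*Wipi1*, the least abundant of these 5 genes per length, stood at 6.01 and 6.43 CPM with DMSO and at 3.30 and 3.33 CPM with the inhibitor (-0.91 ± 0.168, edgeR adjusted p = 0.000810). *Wipi2*, which recruits ATG16L1 to the membrane, stood at 117 and 118 CPM with DMSO and at 90.3 and 85.2 CPM with the inhibitor (-0.42 ± 0.0620, edgeR adjusted p = 0.000165). *Atg9a* stood at 69.3 and 67.8 CPM with DMSO and at 50.4 and 51.9 CPM with the inhibitor (-0.42 ± 0.0677, edgeR adjusted p = 0.000305). For all 3 genes both inhibitor libraries were below both DMSO libraries. In replicate 1 *Wipi1* (0.440 and 0.983 FPKM) and *Atg9a* (6.78 and 9.63 FPKM) were higher with the inhibitor, and *Wipi2* was slightly lower (17.2 and 16.3 FPKM). Of the exon bases of *Atg9a*, 31.8% also belong to *Gm29253*, annotated on the same strand, so that reads of these genes may be split between them.

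The conjugation enzymes act in sequence: ATG7 activates both ubiquitin-like proteins, ATG10 passes ATG12 to ATG5, ATG3 passes ATG8 proteins to phosphatidylethanolamine, and the ATG12-ATG5 conjugate with ATG16L1 sets the place of that step. In the count data 4 of the 7 genes were called lower and 1 higher, beside 32.3% and 31.5% of all tested genes. *Atg3*, the most abundant of them per length in replicate 1, stood at 57.3 and 54.6 CPM with DMSO and at 34.6 and 33.6 CPM with the inhibitor (log2 fold change -0.71 ± 0.0755, 1.64-fold lower, edgeR adjusted p = 1.69e-05). *Atg7* (-0.36, edgeR adjusted p = 0.00489) and *Atg5* (-0.26, edgeR adjusted p = 0.0290) were also called lower, and the call of *Atg5* was lost in 6 of 11 alternative settings, among them without DMSO replicate 2 (-0.24, adjusted p = 0.178) or DMSO replicate 3 (-0.30, adjusted p = 0.0896), with library totals alone (-0.13, adjusted p = 0.228) and with DESeq2 (-0.25, adjusted p = 0.131). *Atg12*, whose product is the ubiquitin-like partner of ATG5, moved the other way, from 46.9 and 46.1 CPM to 65.5 and 65.2 CPM (0.49 ± 0.0686, edgeR adjusted p = 0.000120). Both inhibitor libraries lay above both DMSO libraries for *Atg12*.

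*Atg16l2*, a paralogue of *Atg16l1*, stood at 47.7 and 47.1 CPM with DMSO and at 32.7 and 37.7 CPM with the inhibitor (-0.43 ± 0.0876, edgeR adjusted p = 0.00153). *Atg16l1* itself (-0.11, adjusted p = 0.251) and *Atg10* (-0.07, adjusted p = 0.790) did not pass the test. *Atg10* was among the least abundant members, at 2.89 to 3.49 CPM. In replicate 1 *Atg3* was at 19.3 FPKM in the DMSO library and 30.7 FPKM in the inhibitor library, and *Atg16l2* at 5.88 and 10.4 FPKM, both opposite to the count table. *Atg12* was at 13.6 and 18.1 FPKM, *Atg5* at 11.5 and 11.0 FPKM, and *Atg7* at 7.19 and 6.53 FPKM, each on the same side as in the count table.

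**Figure D2:**
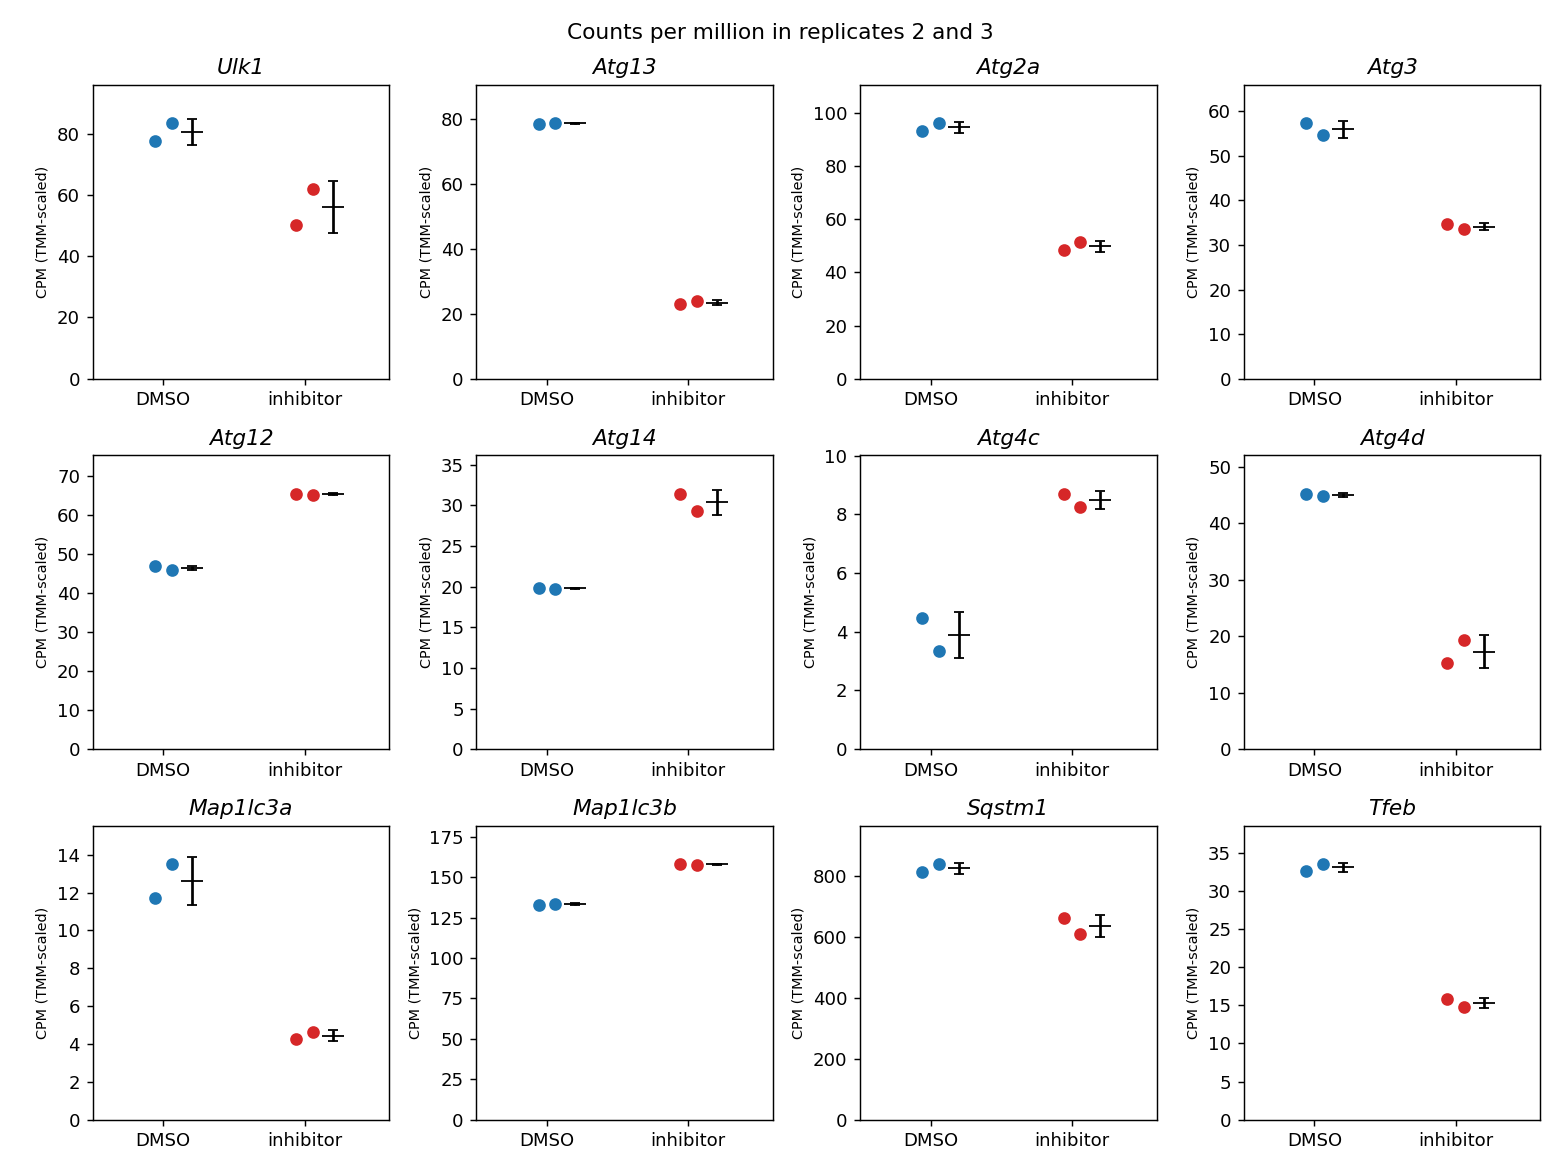
CPM (counts scaled with TMM factors) for 12 autophagy genes in replicates 2 and 3, 1 panel per gene with its own axis from 0. Points are libraries (blue DMSO, red inhibitor) and black marks give the mean and SD of each group. *Atg12*, *Atg14*, *Atg4c* and *Map1lc3b* are higher and the other 8 genes lower with the inhibitor. The groups do not overlap for these 12 genes, as for 83.0% of all tested genes.

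The ATG4 cysteine proteases trim ATG8 precursors before conjugation and cut ATG8 proteins from membranes afterwards. All 4 genes were called in the count table, 3 higher and 1 lower, beside 31.5% called higher and 32.3% called lower among all tested genes. *Atg4d* (chr9:21265293-21277772, plus strand) stood at 45.2 and 44.8 CPM with DMSO and at 15.2 and 19.3 CPM with the inhibitor (log2 fold change -1.38 ± 0.112, 2.61-fold lower, edgeR adjusted p = 2.66e-06). *Atg4c* (chr4:99193934-99259787, plus strand) stood at 4.46 and 3.35 CPM with DMSO and at 8.71 and 8.26 CPM with the inhibitor (1.12 ± 0.173, 2.18-fold higher, edgeR adjusted p = 0.000240). The groups were apart for both genes, and without DMSO replicate 3 the log2 fold change of *Atg4c* was 0.92. *Atg4a* stood at 18.3 and 17.6 CPM with DMSO and at 27.9 and 23.9 CPM with the inhibitor (0.53 ± 0.106, edgeR adjusted p = 0.00134). *Atg4b*, whose product is the most active of these proteases on ATG8 proteins, stood at 45.3 and 45.4 CPM with DMSO and at 62.9 and 56.8 CPM with the inhibitor (0.40 ± 0.0771, edgeR adjusted p = 0.00103). Both were higher in each inhibitor library.

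The make-up of the protease family changed accordingly. *Atg4d* held 31.3% and 32.0% of the summed per-length signal of the 4 genes in DMSO replicates 2 and 3 and 9.18% and 12.7% in inhibitor replicates 2 and 3. The share of *Atg4a* was 34.5% and 34.4% with DMSO and 46.1% and 42.9% with the inhibitor. In replicate 1 the share of *Atg4d* was 37.5% with DMSO and 36.0% with the inhibitor, so the difference in the count table had no counterpart there. The FPKM in replicate 1 were 10.5 and 11.5 for *Atg4d*, 6.18 and 5.45 for *Atg4a*, and 11.0 and 14.9 for *Atg4b*. With *Atg4c* at 0.296 and 0.197 FPKM, *Atg4b* was the only one of the 4 on the same side in both sets. Opposite-strand exons of *Kri1* cover 19.3% of the exon bases of *Atg4d*, and no source states that the counting of replicates 2 and 3 used strand, so reads of the 2 genes may not be separated.

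ATG8 proteins coat the autophagosome and bind its cargo receptors, and they fall into the GABARAP branch and the LC3 branch. In the count data 3 of 5 genes were called lower and 1 higher, beside 32.3% and 31.5% of all tested genes. *Map1lc3a* (chr2:155276297-155278073, plus strand) stood at 11.7 and 13.5 CPM with DMSO and at 4.25 and 4.63 CPM with the inhibitor (log2 fold change -1.50 ± 0.146, 2.84-fold lower, edgeR adjusted p = 8.90e-06). *Map1lc3b*, which encodes the LC3 protein most used as an autophagosome marker, was called higher, at 133 and 134 CPM with DMSO and 158 and 158 CPM with the inhibitor (0.24 ± 0.0558, edgeR adjusted p = 0.00310). The LC3 genes therefore moved apart, although the call of *Map1lc3b* was lost without DMSO replicate 2 (0.23, adjusted p = 0.0643) or DMSO replicate 3 (0.24, adjusted p = 0.0530), with little change in the log2 fold change.

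In the GABARAP branch *Gabarapl2* stood at 52.1 and 52.9 CPM with DMSO and at 35.5 and 34.2 CPM with the inhibitor (-0.59 ± 0.0749, edgeR adjusted p = 6.07e-05). *Gabarapl1* stood at 59.3 and 63.1 CPM with DMSO and at 42.0 and 50.8 CPM with the inhibitor (-0.40 ± 0.0938, edgeR adjusted p = 0.00357). Both were below the DMSO libraries in each inhibitor library. *Gabarap*, the most abundant of the 5 per length in all 6 libraries, stood at 136 and 132 CPM with DMSO and at 152 and 135 CPM with the inhibitor, which overlap (0.09 ± 0.0683, edgeR adjusted p = 0.270). Its log2 fold change was 0.17 without inhibitor replicate 3 and 0.002 without inhibitor replicate 2. *Gabarap* passed the test with upper-quartile scaling (0.17, edgeR adjusted p = 0.0497) and with library totals alone (0.22, edgeR adjusted p = 0.0191). Of the exon bases of *Gabarapl1*, 28.3% are also covered by a transcript on the opposite strand.

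In replicate 1 all 5 ATG8-family genes had a higher value with the inhibitor. *Gabarapl1* was at 24.1 FPKM in the DMSO library and 43.9 FPKM in the inhibitor library, *Gabarapl2* at 44.6 and 59.7 FPKM, and *Map1lc3a* at 6.74 and 11.2 FPKM. These 3 are the genes called lower in replicates 2 and 3. *Gabarap* was at 122 and 174 FPKM and *Map1lc3b* at 23.5 and 39.3 FPKM. As a share of the summed per-length signal of the family, *Map1lc3a* was at 6.46% and 7.37% in DMSO replicates 2 and 3, at 2.52% and 2.85% in inhibitor replicates 2 and 3, and at 3.05% and 3.43% in the DMSO and inhibitor libraries of replicate 1. The share of *Gabarap* was 48.2% and 46.3% with DMSO and 57.5% and 52.9% with the inhibitor in the count table, and 55.3% and 53.0% in replicate 1. Per length, *Gabarap* transcripts were the largest part of the family in each library, and the fall in the share of *Map1lc3a* was seen in replicates 2 and 3 only. The rank of *Gabarap* in the count table rests on merged exon lengths of 1844 bases for *Gabarap* and 7517 for *Map1lc3b*. In CPM, *Map1lc3b* was above *Gabarap* in inhibitor replicates 2 and 3, and the genes were about equal with DMSO.

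**Figure D3:**
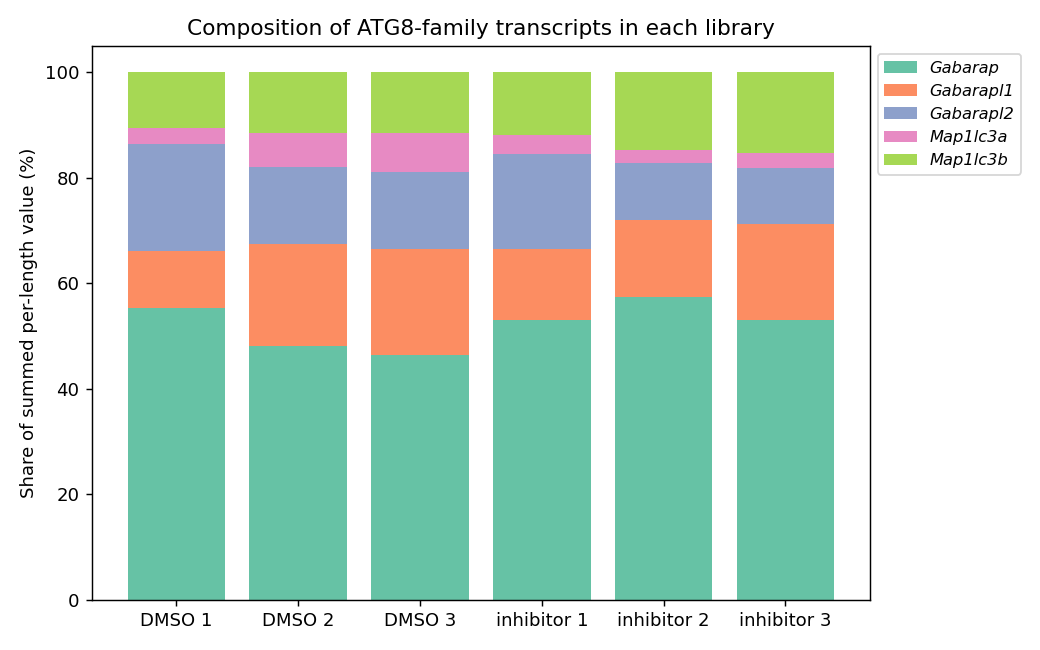
Share (%) of each ATG8-family gene in the summed per-length signal of the 5 genes, 1 stacked bar per library; replicate 1 bars use FPKM and replicates 2 and 3 use CPM per kilobase of exon. *Gabarap* holds between 46.3% and 57.5% in the 6 libraries, and *Map1lc3a* is at 6.46% and 7.37% in DMSO replicates 2 and 3 against 2.52% and 2.85% in inhibitor replicates 2 and 3.

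Cargo receptors bind ubiquitin-marked cargo and ATG8 proteins at the same time. *Sqstm1* encodes p62, *Nbr1* a related receptor that works with p62 on protein aggregates, and *Optn* optineurin, a receptor for damaged mitochondria and bacteria. *Sqstm1*, the most abundant of the 37 genes per length, stood at 814 and 840 CPM with DMSO and at 663 and 610 CPM with the inhibitor (log2 fold change -0.38 ± 0.0540, edgeR adjusted p = 0.000140). *Nbr1* stood at 97.0 and 88.0 CPM with DMSO and at 69.9 and 74.9 CPM with the inhibitor (-0.35 ± 0.0723, edgeR adjusted p = 0.00156). Both receptors were lower in each inhibitor library than in either DMSO library. *Optn* gave 0.17 ± 0.105 (adjusted p = 0.187). In replicate 1 *Sqstm1* was at 176.5 and 184 FPKM, nearly equal, and *Nbr1* at 15.7 and 25.9 FPKM, higher with the inhibitor. Exons of *Mrnip* on the opposite strand cover 17.3% of the exon bases of *Sqstm1*.

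*Tfeb* (chr17:47737030-47792419, plus strand) stood at 32.7 and 33.5 CPM with DMSO and at 15.8 and 14.8 CPM with the inhibitor. Its log2 fold change was -1.11 ± 0.0932, a level 2.16-fold lower (edgeR adjusted p = 3.30e-06). Both DMSO libraries were well above both inhibitor libraries. *Tfeb* was on the same side in replicate 1, at 5.16 FPKM in the DMSO library and 4.35 FPKM in the inhibitor library, though by a small difference of -0.20 on the log2(FPKM + 1) scale. *Tfe3*, the more abundant of the 2 per length in replicate 1, stood at 48.3 and 47.5 CPM with DMSO and at 42.9 and 45.8 CPM with the inhibitor (-0.11 ± 0.0754, adjusted p = 0.224), and at 12.5 and 13.4 FPKM in replicate 1. The RNA level of these factors does not show their activity, which is controlled by phosphorylation and location and was not measured here.

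Members were also compared by the letters in their promoters, because TFEB and TFE3 are known to bind E-boxes with the letters CACGTG. RefSeq promoter entries (build GRCm38.p6) were matched for 31 of the 37 genes, and the 250 bases before the RefSeq start were searched on both strands. *Rb1cc1*, *Pik3c3*, *Becn1*, *Atg12*, *Atg16l1* and *Map1lc3a* were not searched. CACGTG was found for 3 of 31 genes (9.68%), *Atg3*, *Atg5* and *Atg7*, in 6.04% of 27025 promoters of the same length, and in 7.72% of the 12606 promoters of tested genes. The longer TCACGTGA, which contains it, was found for *Atg3* alone (3.23%, against 0.803% of all promoters and 1.37% of those of tested genes). The letters TGATGCAA, known as a site type of ATF4 and its partners, and ATCAAAG, a site type of TCF1, were found in none of the 31 windows, and in 0.825% and 3.26% of all promoters (0.524% and 2.34% of those of tested genes). A match is a description of the letters only.

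The windows of *Atg3* and *Atg5* are shown since they hold the E-box letters close to the start of genes of the conjugation steps, with CACGTG in capitals. The *Atg3* window lies at chr16:45158579-45158784 (plus strand, the 206 bases before the annotated gene) with its E-boxes beginning 94 and 71 bases before the RefSeq start, the second of these being within TCACGTGA, and the *Atg5* window at chr10:44268089-44268338 (plus strand) with its E-box 14 bases before that start. The window of *Atg7* lies inside the annotated gene and is not shown.
Atg3: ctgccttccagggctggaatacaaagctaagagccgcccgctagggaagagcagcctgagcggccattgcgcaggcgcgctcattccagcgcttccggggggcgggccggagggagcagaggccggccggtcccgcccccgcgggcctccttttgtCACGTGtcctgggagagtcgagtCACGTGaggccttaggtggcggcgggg
Atg5: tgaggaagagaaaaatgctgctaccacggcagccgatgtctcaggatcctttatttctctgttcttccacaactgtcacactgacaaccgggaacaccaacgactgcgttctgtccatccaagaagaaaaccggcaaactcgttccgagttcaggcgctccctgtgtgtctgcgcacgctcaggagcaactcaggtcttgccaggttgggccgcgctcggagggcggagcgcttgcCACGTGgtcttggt

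Other genes of the pathway, listed by known role, were more often higher than lower in the count table. Of 54 tested, 27 (50%) were called higher, beside 31.5% of all tested genes, and 16 (29.6%) lower, near the 32.3% of all tested genes. Their median log2 fold change was 0.20, and the difference from the 37 genes was not tested. The genes for fusion of autophagosomes with lysosomes had 8 of 14 higher and 2 lower, other cargo receptors 8 of 17 higher and 6 lower, other genes of autophagosome formation 7 of 16 higher and 6 lower, and relatives and regulators of TFEB and TFE3 (*Mitf* and *Tfec* are relatives) 4 of 7 higher and 2 lower. In replicate 1, where 60.2% of the tested genes listed there had the higher value with the inhibitor, this held for 10 of 14 fusion genes, 12 of 17 other receptors, 17 of 18 other formation genes and 7 of 8 relatives and regulators. Centred on the median ratio of genes reaching 1 FPKM in each of the 2 libraries, an alternative chosen after seeing the data, these numbers were 10, 10, 15 and 4, beside 52.8% of those tested genes. *Epg5*, a tether for fusion, was 2.07-fold lower (77.1 and 79.5 CPM with DMSO, 38.8 and 36.9 CPM with the inhibitor, log2 fold change -1.05, edgeR adjusted p = 7.63e-07). *Wdr45*, a relative of the WIPI genes, was 2.57-fold lower (35.9 and 36.8 against 14.2 and 14.1 CPM, log2 fold change -1.36, edgeR adjusted p = 7.06e-07), and *Stbd1*, a glycogen receptor, 2.95-fold lower (2.40 and 3.05 against 0.986 and 0.856 CPM, log2 fold change -1.56, edgeR adjusted p = 0.000575). All 3 were apart between the groups. *Rubcnl*, which encodes Pacer, a promoter of autophagosome maturation, was higher (10.6 and 10.6 against 23.8 and 22.3 CPM, log2 fold change 1.12, edgeR adjusted p = 7.11e-06), as was *Fnip1*, the folliculin partner that acts on TFEB and TFE3 through the Rag GTPases (51.5 and 47.0 against 112 and 91.6 CPM, log2 fold change 1.05, edgeR adjusted p = 6.15e-06). *Mitf*, a TFEB relative with low counts, was called lower (0.931 and 1.65 against 0.423 and 0.797 CPM, log2 fold change -1.09, edgeR adjusted p = 0.0452), but not without DMSO replicate 3 (-0.62, adjusted p = 0.363) or inhibitor replicate 2 (-0.70, adjusted p = 0.162). In replicate 1 *Epg5* (6.70 and 4.75 FPKM) and *Stbd1* (1.03 and 0.484 FPKM) were lower with the inhibitor, *Fnip1* (9.64 and 11.5 FPKM) was higher, and *Wdr45* was nearly equal (15.6 and 15.7 FPKM), as were the low values of *Mitf* (0.411 and 0.402 FPKM). Exons of *Gm45208* on the same strand cover 24.7% of the exon bases of *Wdr45*.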

How the data were processed

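The count table of replicates 2 and 3 was deposited by the authors as raw counts per gene symbol; their processing notes name fastp 0.21.0, HISAT2 2.1.0, StringTie 2.1.5, DESeq2 1.30.1 and build mm10. The FPKM values of replicate 1 were made by the authors from a stranded library with FastQC and HISAT2 named (GRCm38/mm10); the unit was inferred. Counts were filtered with filterByExpr (minimum count 10, minimum total 15), scaled by TMM and fitted with edgeR 4.0.16 in R 4.3.3 (glmQLFit, glmQLFTest, no covariate, Benjamini-Hochberg adjustment over 16269 genes), and checked with DESeq2 1.42.0. Standard errors are the log2 fold change divided by the root of F. TMM factors were 0.960, 0.955, 1.05 and 1.04 and the common biological coefficient of variation was 0.0659. The edgeR fit was tested on counts simulated with a common dispersion. Replicate 1 was compared as log2(FPKM + 1) without a test. Per-length values of the count table use the merged exon lengths of GENCODE M21. Replicates of a group differed beyond sampling noise on average (mean chi-square per gene 3.08 for DMSO and 9.60 for the inhibitor, median 1.02 and 2.16) and were counted separately. This comparison covers counting noise only and cannot show that the libraries came from separate cultures. Values in every library are printed for genes called with a log2 fold change of 0.5 or more in size, for called genes whose replicate 1 ratio had the opposite sign with 0.3 or more on both sides, and for the most abundant gene of each role; related genes are named at 1 or more in size, at most 4 per list. Members and lists were chosen with earlier results of these data known. The markers *Trac*, *Trbc2*, *Ighm* and *Ighd* were not analysed here.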

Additional observations from a re-analysis of the deposited data

How the results depend on the processing

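Of the 27 autophagy genes called, 23 kept their call and sign in all 11 alternative settings. *Atg101* and *Atg5* lost it in 6 settings each, *Map1lc3b* in 2 and *Pik3c3* in 1; *Ambra1*, *Gabarap* and *Optn* gained one in at least 1 setting, and no called gene changed sign. Numbers called ranged from 5 to 9 higher and from 18 to 21 lower. Among all 16269 tested genes the balance depended on the scaling. The main fit called 5122 higher and 5252 lower, upper-quartile scaling 5823 and 4633, and library totals alone 6176 and 4302. The median log2 fold change of the 37 genes was -0.18 with upper-quartile scaling, -0.13 with library totals alone, -0.21 with at least 10 counts in every library, and from -0.30 to -0.27 with 1 library left out, where a lone library is assumed to vary like the other group. Library totals moved the median of all genes from 0.01 to 0.14, and the median of the 37 genes (-0.13) was still below it. Relatives and regulators of TFEB and TFE3 called lower numbered 1 with upper-quartile scaling, with library totals alone and with DESeq2, and from 1 to 2 with 1 library left out, through *Mitf*; the cause was not tested. With the replicate block 10645 genes were called in place of 10374, and 7 autophagy genes were higher and 20 lower as without it; same-numbered libraries share only a number (correlation of deviations 0.0431 over 8134 genes). Chosen after seeing the data, leaving out the 7 genes with 5% or more exon overlap gave 6 higher and 15 lower of 30, and centring replicate 1 on the median of all genes gave a median ratio of 0.31 with 27 genes higher. With 2 libraries per group, low genes such as *Atg10* (SE 0.203) allow only large differences to be seen.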

Other observations

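*Mapk13*, the gene of the inhibited kinase, had 79 and 74 counts with DMSO and 21 and 51 counts with the inhibitor in replicates 2 and 3 (log2 fold change -1.47, edgeR adjusted p = 0.00490). In replicate 1 it was at 0.191 FPKM in the DMSO library and 3.28 FPKM in the inhibitor library, on the other side from the count table. The count of *Mapk13* was low in all 4 libraries of the table. The other genes looked at for context, *Slc7a5* and *Tcf7*, were on the same side in both sets. *Slc7a5*, an amino acid transporter, was lower with the inhibitor (log2 fold change -2.19, edgeR adjusted p = 4.10e-09, and 142 against 41.5 FPKM for DMSO and inhibitor in replicate 1). *Tcf7*, which encodes TCF1, was higher (0.29, edgeR adjusted p = 0.00855, and 59.4 against 73.5 FPKM).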
